A study of Mus musculus with 7 samples.

Results

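The cell cycle and mitosis genes described here are 45 genes named in a fixed list, of the 26586 gene symbols in the count table. All 45 were found by symbol, and they were split into 28 mitotic genes and 17 replication genes. The mitotic genes act on entry into mitosis, the spindle, its checkpoint and anaphase, and the replication genes act in G1, in the loading and firing of replication origins, and in the supply of nucleotides. Chek1, a kinase that restrains CDK1 when replication stalls, was placed among the replication genes. The samples were 7 mouse embryos sequenced singly (strain background C57BL/6), flushed as morulae at 3 d.p.c. (days post coitum) from pregnant L13a(+/-) mice mated in an L13a-/+ cross. L13a stands for Rpl13a, a gene for a large-subunit ribosomal protein. The kind of mutant allele was not used here, because the labels name it no further. All 7 embryos form 1 group, called embryos 1 to 7 after their replicate numbers. Their own genotypes are not given and none was assigned from the data, so no groups were compared. Nothing says that the embryos came from separate litters, so each p-value below holds for these 7 libraries only. The permutation tests ask whether the genes of a pair differ on average within embryos. The dispersion test asks how far the libraries differ, part of which may be technical.

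The cell cycle is driven by cyclins, which bind and activate cyclin-dependent kinases, and by regulated protein destruction. Cyclin B with CDK1 starts mitosis, WEE kinases hold CDK1 inactive by phosphorylation, and CDC25 phosphatases remove that block. The spindle checkpoint delays anaphase until chromosomes are attached, after which the anaphase promoting complex destroys securin and cyclin B. Before replication, CDC6 and CDT1 load the ring of MCM2 to MCM7 proteins onto origins. The oocyte stores messenger RNA of many of these genes for meiosis and the first cleavages, and that store is replaced by transcripts of the embryo's own genome.

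Library totals ran from 139619 counts in embryo 6 to 33123742 in embryo 4, a 237-fold range. A count of 0 allows up to 3 counts, which is 0.0906 CPM (the count of a gene scaled to its library total) in embryo 4 and 21.5 CPM in embryo 6. Such limits and the 95% intervals below cover counting error only, since the libraries carry no molecular identifiers. Rpl13a itself had 86.5, 119, 5.51, 530, 3.26, 7.16 and 23.5 CPM in embryos 1 to 7. The 18 oocyte markers summed to between 16602 and 43988 CPM in embryos 1, 2, 3, 6 and 7, to 4154 CPM in embryo 4 and to 782 CPM in embryo 5. Of the sum in embryo 4, Dppa3 alone made up 4059 CPM, its highest level of the 7 embryos. The other 17 oocyte markers, a split made after these values were seen, summed to 94.4 CPM in embryo 4, 698 CPM in embryo 5 and between 13697 and 41083 CPM in the other 5. The 14 lineage markers of the late morula summed to 6512 CPM in embryo 4, with all 14 counted, and Nanog and Cdx2 were counted in embryo 4 alone. In the other 6 embryos the lineage sum was between 156 and 3065 CPM, with 3, 10, 4, 3, 1 and 8 markers counted in embryos 1, 2, 3, 5, 6 and 7. The sum of 3065 CPM, in embryo 6, was Dab2 alone. Embryo 6 also held oviduct and uterine markers (6289 CPM, 4 of 10 counted) and stromal markers (4348 CPM, 2 of 7 counted, almost all of it Dcn, a matrix protein). Oviduct and uterine markers summed to 1153 CPM in embryo 1, 1811 CPM in embryo 2 and at most 249 CPM in the other 4. Of 10 cumulus and granulosa markers, 7, among them Amh, Fshr and Foxl2, were at 0 in every embryo, and the rest summed to between 0 and 480 CPM. The sum of 480 CPM, in embryo 5, was almost all Nr5a2. Of 8 blood markers and 7 sperm markers in the table, the sums were at most 129 and 22.0 CPM. In a whole embryo, fewer cells of a type and less RNA per cell cannot be told apart.

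Transcripts of the cell cycle genes were widely present, but few were found in every embryo. Counts were found for 33, 43, 25, 44, 32, 15 and 43 of the 45 genes in embryos 1 to 7. These are 73.3, 95.6, 55.6, 97.8, 71.1, 33.3 and 95.6% of the cell cycle genes, beside 41.7, 72.1, 29, 84, 27.7, 14.8 and 69.5% of the 11810 genes with a mean of 1 CPM or more. All 45 genes passed that minimum. Their median level, taken as the mean CPM of each gene, was 89.1 CPM, against 20.6 CPM over the 11810 genes, so the shares are not those of genes of like level. At the depth of the smallest library the expected numbers were 26.6, 38.2, 21.3, 42.6, 19.6, 15 and 37.2 of the 45 genes. These are 59.2, 84.8, 47.3, 94.6, 43.5, 33.3 and 82.6%, beside 33.1, 57.6, 23.8, 69, 19.6, 14.8 and 55.4% of all genes tested at the same depth, with the embryos in the same order for both. Of the 45 genes, 36 (80.0%) were counted in 5 or more embryos, beside 26.9% of all genes tested, and 41 (91.1%) were counted in all of embryos 2, 4 and 7, beside 49.8%. Mitotic genes were counted in a median of 6 embryos and replication genes in a median of 5.

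**Figure D1:**
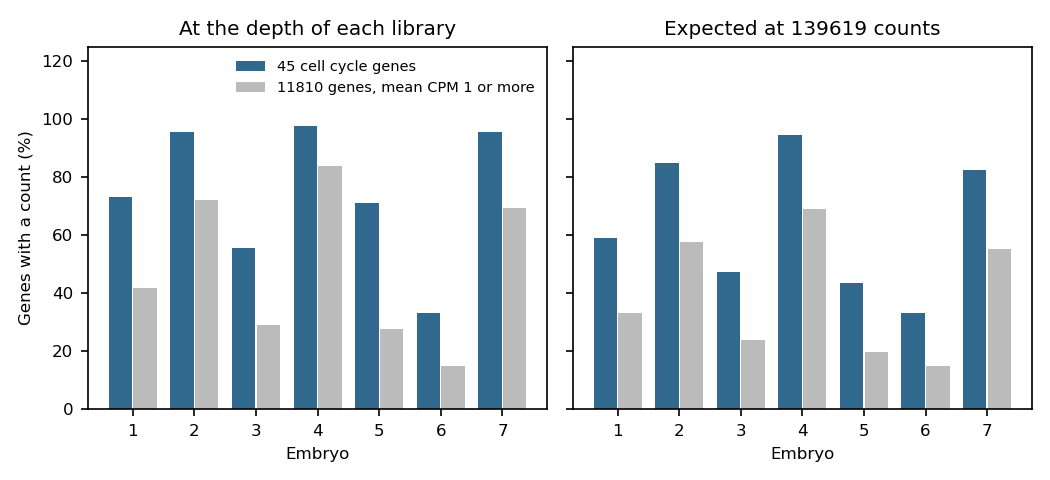
Share of genes with at least 1 count in each of the 7 embryos (y axis, %), for the 45 cell cycle genes (blue) and the 11810 genes with a mean of 1 CPM or more (grey), at the depth of each library (left) and for the number expected at 139619 counts (right). Embryo 4 has the highest share of cell cycle genes (97.8%) and embryo 6 the lowest (33.3%).

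Only 6 cell cycle genes (13.3%, beside 3.69% of all genes tested) had a count in all 7 embryos. They were Pttg1, Ccnb1, Plk1, Mki67 and Cenpe of the mitotic genes and Chek1 of the replication genes. Without embryo 6, the smallest library, 15 genes (33.3%) were counted in all 6 remaining embryos, 11 mitotic and 4 replication genes, beside 8.74% of all genes. The map of log2 CPM shows that the blank entries fall mostly on embryos 3, 5 and 6 for mitotic genes and on embryos 1, 3, 5 and 6 for replication genes.

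**Figure D2:**
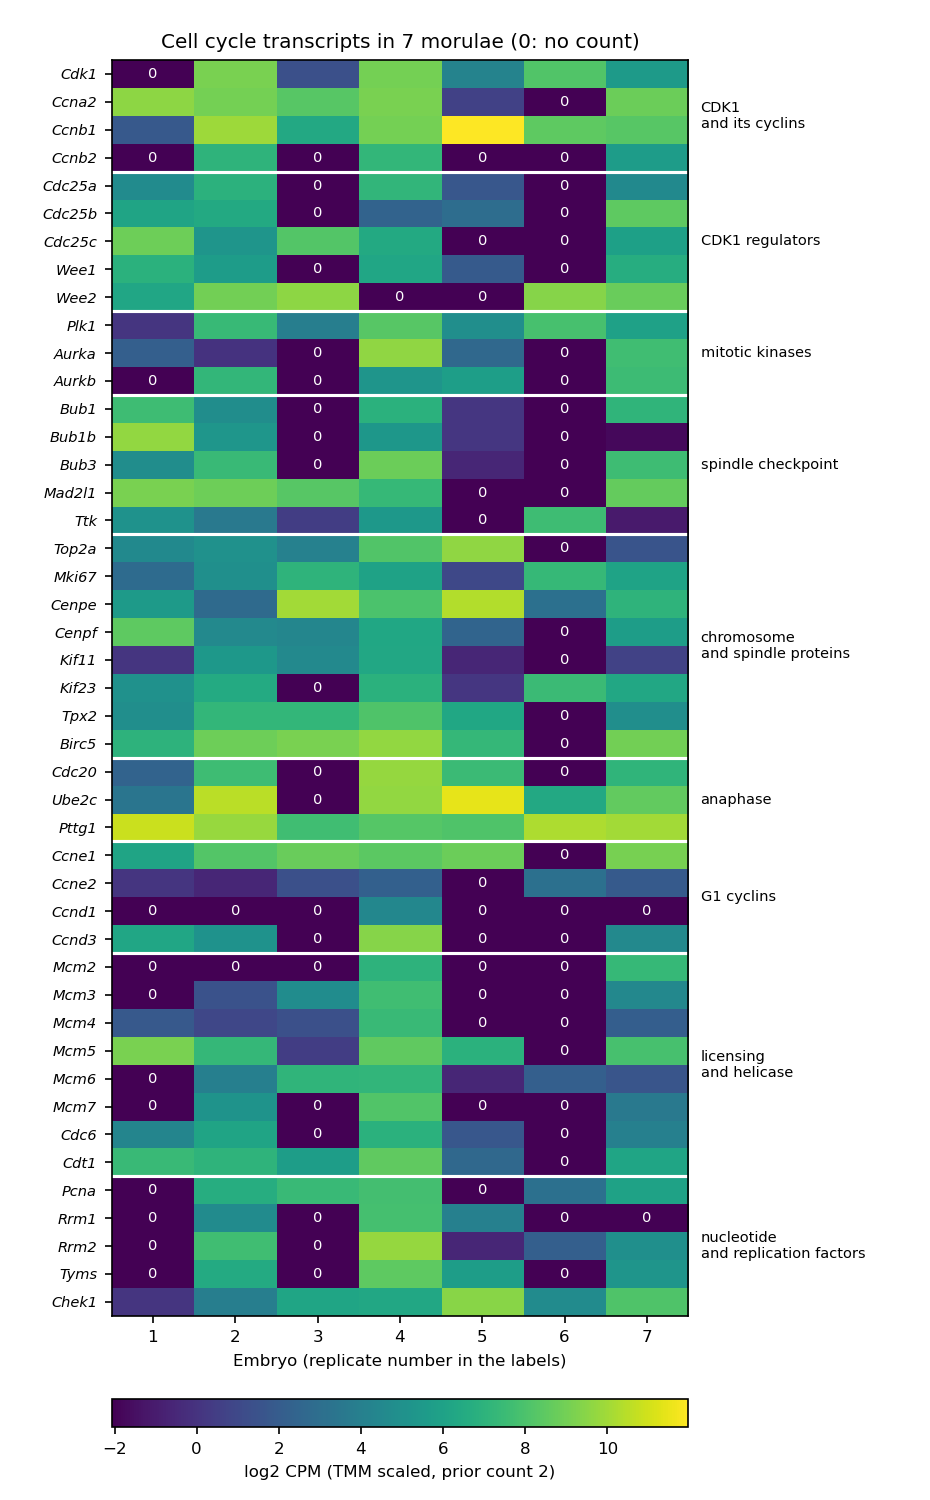
Log2 CPM (colour, scaled with TMM factors and a prior count of 2) of the 45 cell cycle genes (rows, by role) in the 7 embryos (columns), with 0 marking entries without a count. Pttg1 is bright in all 7 columns, Ccnd1 has a count in embryo 4 alone, and Wee2 is at 0 in embryos 4 and 5.

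Summed over genes, mitotic transcripts covered a narrower range than replication transcripts. The 28 mitotic genes together had 5830, 6052, 4795, 5872, 8085, 5687 and 5332 CPM in embryos 1 to 7, a 1.69-fold range. With TMM scaling the mitotic sums ran from 3398 in embryo 6 to 9713 in embryo 5, a 2.86-fold range, and the mean log2 CPM of the class ran from 1.39 in embryo 6 to 7.11 in embryo 4, so the narrow range holds for summed CPM over the library total. The 17 replication genes had 932, 954, 1102, 3351, 1138, 85.9 and 1470 CPM, a 39.0-fold range, or 3.60-fold without embryo 6, and an 89.3-fold range with TMM scaling. Embryo 4 stood highest for replication genes, and embryo 6 lowest, with 12 counts over 5 genes (95% Poisson interval 44.4 to 150 CPM). Chek1 alone held 6 of those counts, and 597 of the 1138 CPM of embryo 5. Without Cdc25a, Chek1, Wee1 and Wee2, which act at several steps, the replication range was 76.6-fold. The mitotic sum exceeded the replication sum in all 7 embryos, with ratios of 6.26, 6.34, 4.35, 1.75, 7.10, 66.2 and 3.63. Without the genes that act at several steps, the ratio was 14.9 in embryo 5 and 106 in embryo 6. The classes hold unequal numbers of genes, so at most the order of embryos is of use. With the mean log2 CPM of the members in place of the sums, the order of embryos changed. Embryo 1 was then highest, at a log2 difference of 3.73, and embryo 6, highest by the sums, was at 1.95. Embryo 4 remained lowest, at -0.31, with the mitotic class below the replication class, and the mitotic class was higher in the other 6. Embryo 4, with the lowest ratio, was also the embryo with the highest lineage marker sum and the deepest library, and the part of either in the ratio was not tested.

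**Figure D3:**
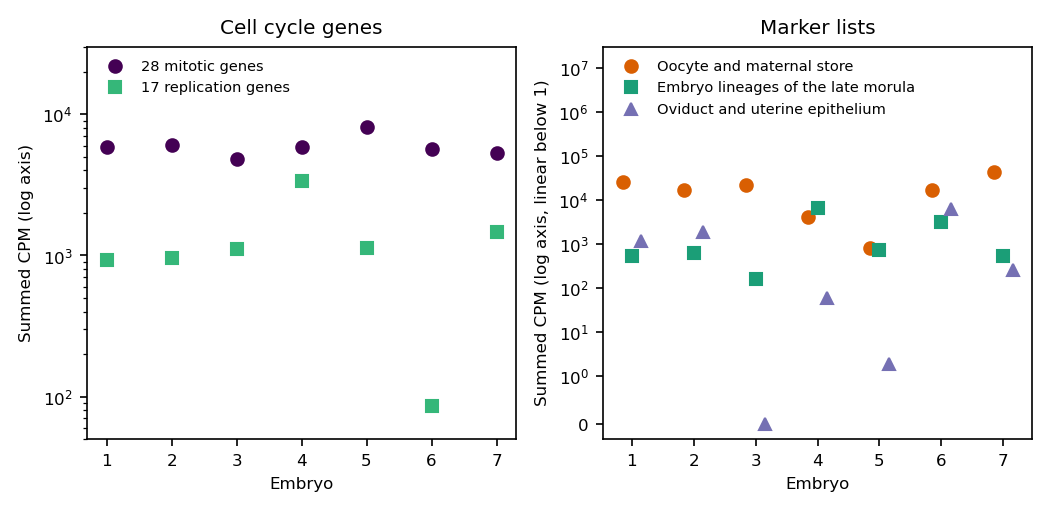
Left, summed CPM (log axis) of the 28 mitotic genes (circles) and the 17 replication genes (squares) in each of the 7 embryos; right, summed CPM of 3 marker lists (log axis, linear below 1). Mitotic sums lie between 4795 and 8085 CPM, and replication sums between 85.9 CPM in embryo 6 and 3351 CPM in embryo 4.

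The leading genes differed between embryos. The 3 most abundant cell cycle genes were Pttg1, Bub1b and Ccna2 in embryo 1, Ube2c, Ccnb1 and Pttg1 in embryo 2, and Cenpe, Wee2 and Birc5 in embryo 3. They were Rrm2, Cdc20 and Ube2c in embryo 4, Ccnb1, Ube2c and Cenpe in embryo 5, Pttg1, Wee2 and Ccnb1 in embryo 6, and Pttg1, Ccne1 and Birc5 in embryo 7. The top 3 made up 73.1% of the cell cycle CPM in embryo 5 and 65.1% in embryo 6, but 20.3% in embryo 4, where the signal was spread most evenly over the genes.

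Among CDK1 and its cyclins, cyclin B1 was the one found in every embryo. Ccnb1, which encodes cyclin B1, had 3.50, 772, 101, 381, 3342, 602 and 307 CPM in embryos 1 to 7. Embryo 1 stood low with 4 counts (95% Poisson interval 0.953 to 8.95 CPM), and embryo 5 had the highest level of any of the 45 genes in any embryo. Cdk1, the mitotic kinase itself, had 0, 461, 2.76, 386, 15.2, 473 and 46.9 CPM, so it was high in embryos 2, 4 and 6 and at most 15.2 CPM in embryos 1, 3 and 5. Ccna2, encoding cyclin A2, which acts in S phase and early mitosis, had 790, 431, 394, 407, 1.09, 0 and 435 CPM. It was thus even over 5 embryos and nearly missing from embryos 5 and 6, where Ccnb1 was abundant. Ccnb2, encoding cyclin B2, had 0, 109, 0, 110, 0, 0 and 49.4 CPM, with counts in the 3 deepest libraries alone. Ccnb1 lies on chromosome 13 from 100778650 to 100786570 and Cdk1 on chromosome 10 from 69335146 to 69352938, both on the minus strand of GRCm38.

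Set per kilobase of the longest coding transcript, Ccnb1 was above Ccnb2 in 7 of 7 embryos. The mean difference in log2 of the CPM plus 1, per kilobase, was 4.58 ± 3.96 (SD, n = 7; two-sided exact permutation p 0.0156, adjusted over the 12 pairs 0.0625). With Ccnb2 at 0 in 4 embryos the size of the difference follows the pseudocount, at 6.44 with 0.1, 3.37 with 5 and 7.79 in the deposited log2 table. That p is the smallest that 7 embryos allow, and with adjustment over 12 pairs no pair reached 0.05. The 12 pairs were chosen with earlier results of these data known, and the adjustment does not cover that choice. In the 4 embryos in which Ccnb2 had no count, Ccnb1 was between 1.40 and 1343 CPM per kilobase. Cdk1 against Ccna2 gave no such order, with Cdk1 higher in 2 embryos and Ccna2 in 5 (mean difference -1.66 ± 6.16, SD, n = 7; exact permutation p 0.469, adjusted 0.625). Reads of Ccna2 may include those of Exosc9, which overlaps it on the opposite strand, because the labels do not say whether counting used strand. The same holds for Wee1 with 1600010M07Rik, Cdc25b with Spef1, Bub3 with Fgfr2, Cdc20 with Elovl1, Ube2c with Tnnc2, Ccne2 with Ints8, Ccnd3 with Bysl, and Mcm7 with Cops6 and Ap4m1.

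The WEE kinases divided the embryos. Wee2, the form of WEE1 known from oocytes, where it keeps CDK1 inactive during meiotic arrest, had 78.7, 411, 943, 0, 0, 1132 and 423 CPM in embryos 1 to 7. It had no count among 33123742 in embryo 4, which allows up to 0.0906 CPM, and none in embryo 5, which allows up to 1.09 CPM. Btg4, a factor of maternal RNA clearance and itself an oocyte transcript, was at 949, 211, 1520, 0, 0, 723 and 2545 CPM, with its 0 entries in the same embryos. Of the 18 oocyte markers 3, Zp2, Oog1 and Btg4, had no count in both embryos 4 and 5, while Gdf9 and Omt2b were counted in all 7 and Dppa3 was highest in embryo 4. Of the 11810 genes tested, 40 (0.339%) were counted in embryos 1, 2, 3, 6 and 7 and in neither of the others, a pattern looked for after the values of Wee2 were seen. Wee1, the form of dividing somatic cells, had 123, 41.8, 0, 55.8, 2.89, 0 and 98.3 CPM. Wee2 made up 39.0% of the counts of the pair in embryo 1 (95% Clopper-Pearson interval 32.6 to 45.6%), 90.8% in embryo 2, 81.1% in embryo 7 and all of 684 and 158 counts in embryos 3 and 6. It made up 0 of 1847 counts in embryo 4 (interval up to 0.200%) and 0 of 8 in embryo 5 (interval up to 36.9%). Wee2 was higher per kilobase in 4 embryos and Wee1 in 3, and the mean difference of 2.67 ± 5.95 (SD, n = 7) was within that spread (exact permutation p 0.297, adjusted 0.445). Wee2 lies on chromosome 6 from 40439088 to 40466813 on the plus strand.

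**Figure D4:**
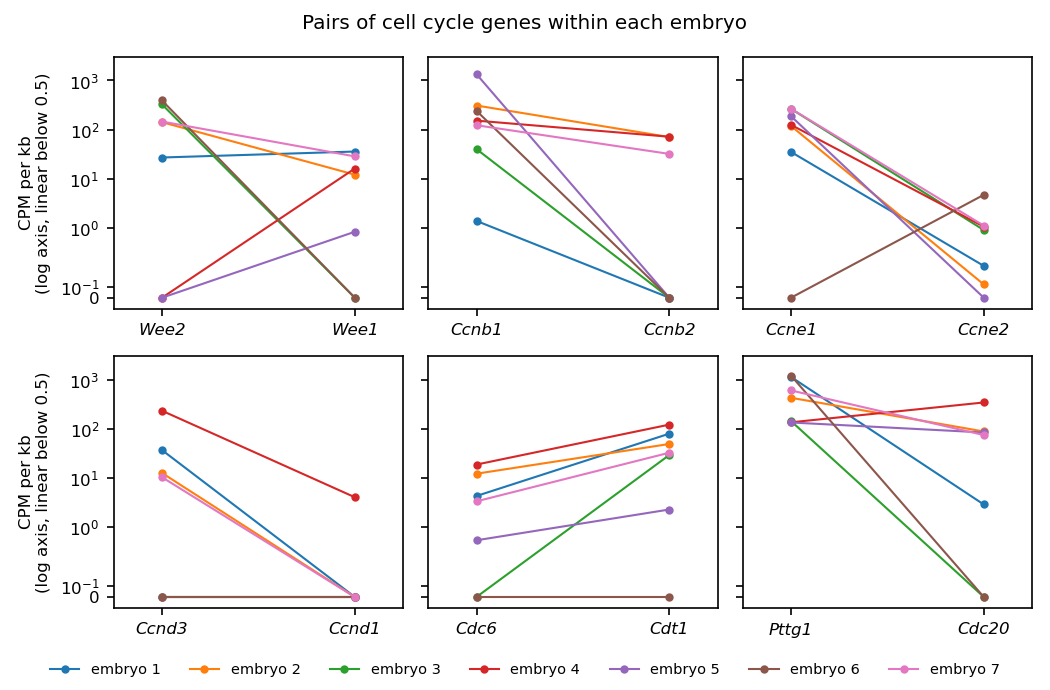
CPM per kilobase (log axis, linear below 0.5) of 6 pairs of cell cycle genes, with a line for each of the 7 embryos. Ccnb1 is above Ccnb2 in all 7 embryos, Cdc6 is below Cdt1 in the 6 embryos with counts, and lines for Wee2 and Wee1 cross.

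The CDC25 phosphatases, which remove the WEE block from CDK1, were each highest in another embryo. Cdc25c had 483, 30.3, 361, 63.1, 0, 0 and 59.2 CPM, with its peak in embryo 1. Cdc25b, the form needed for meiotic resumption in the mouse oocyte, had 72.6, 71.4, 0, 3.62, 6.15, 0 and 355 CPM, with its peak in embryo 7. Cdc25a had 26.2, 101, 0, 106, 2.53, 0 and 23.5 CPM and was highest in embryos 2 and 4. In embryo 4, Cdc25b held 3.30% of the counts of Cdc25b and Cdc25a together (95% Clopper-Pearson interval 2.74 to 3.93%), against 93.8% in embryo 7 (93.2 to 94.4%). Neither Cdc25b over Cdc25a (mean log2 difference 0.42 ± 2.54, exact permutation p 0.641, adjusted 0.699) nor Cdc25c over Cdc25a (2.28 ± 3.75, SD, n = 7 each, p 0.156, adjusted 0.268) exceeded the spread between embryos.

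Of the mitotic kinases, only Plk1 was counted in every embryo. Plk1, which promotes mitotic entry and spindle assembly, had 0.874, 138, 17.9, 232, 24.2, 401 and 61.9 CPM, with 1 count behind the value of embryo 1. Aurka, the kinase of spindle poles, had 4.37, 0.608, 0, 582, 5.06, 0 and 198 CPM, so embryos 4 and 7 stood far above the rest. Aurkb, the kinase of the chromosomal passenger complex, had 0, 121, 0, 27.4, 45.9, 0 and 182 CPM. Aurka held 0.50% of the counts of the 2 kinases in embryo 2 (95% Clopper-Pearson interval 0.240 to 0.918%) and 95.5% in embryo 4 (95.2 to 95.8%), from 2000 and 20176 counts. Their mean difference was -0.29 ± 3.46 (SD, n = 7; exact permutation p 0.875, adjusted 0.875), and its sign turned without embryo 2, without embryo 5 and in the deposited log2 table.

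The BUB checkpoint genes were at or near 0 in embryos 3, 5 and 6. Bub1, Bub1b and Bub3, which encode checkpoint proteins recruited to kinetochores, had no count in embryos 3 and 6 and at most 0.723 CPM in embryo 5. Bub3 ranged up to 335 CPM, in embryo 4. Bub1b (BubR1) had 843, 31.5, 0, 30.1, 0.723, 0 and 0.0584 CPM, whereas Bub1 had 198, 22.7, 0, 88.0, 0.723, 0 and 134 CPM. In embryo 7 the 2 genes parted, with 1 count of Bub1b and 2295 of Bub1, a share of 0.0436% for Bub1b (95% Clopper-Pearson interval 0.00110 to 0.242%). In embryo 1 Bub1b held 81.0% (78.7 to 83.2%). Over all 7 embryos the mean difference was -0.95 ± 2.91 (SD, n = 7; exact permutation p 0.641, adjusted 0.699). Mad2l1, the inhibitor of CDC20 in the checkpoint, had 574, 384, 380, 119, 0, 0 and 391 CPM. Its level was steady over 4 embryos, lower in embryo 4 and at 0 in embryos 5 and 6. Ccna2 was also at or near 0 in embryos 5 and 6, which was seen only once the values were known. Of all genes tested, only 27.7% were counted in embryo 5 and 14.8% in embryo 6. A count of 0 in embryo 6 allows up to 21.5 CPM. Ttk, the kinase that starts checkpoint signalling, peaked at 322 CPM in embryo 6, with a median of 9.48 CPM.

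Chromosome and spindle genes included 2 of the 6 genes found in every embryo. Cenpe, a kinesin that moves chromosomes to the spindle equator, had 49.8, 5.35, 1246, 190, 1083, 14.3 and 131 CPM, highest in embryos 3 and 5. Mki67, the proliferation antigen that coats mitotic chromosomes, had 6.99, 24.1, 163, 47.3, 1.45, 265 and 65.4 CPM. Birc5 (survivin), of the chromosomal passenger complex, had 133, 385, 689, 602, 131, 0 and 488 CPM, so it was above 100 CPM in every embryo but embryo 6, where a count of 0 allows up to 21.5 CPM. Tpx2, a spindle assembly factor that activates Aurora A, was likewise at 0 in embryo 6 alone and between 27.9 and 202 CPM elsewhere. Top2a, the topoisomerase that untangles sister chromatids, reached 659 CPM in embryo 5 with a median of 24.5 CPM. Cenpf, a kinetochore protein, peaked at 366 CPM in embryo 1, Kif23, a kinesin of cytokinesis, at 308 CPM in embryo 6, and Kif11, the kinesin that separates spindle poles, at 60.3 CPM in embryo 4.

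Securin had the smallest spread of the cell cycle genes. Pttg1, whose protein holds separase inactive until anaphase, had 1909, 720, 243, 229, 227, 2027 and 1016 CPM in embryos 1 to 7, an 8.94-fold range. It was lowest in embryos 3, 4 and 5, and its SD of log2 CPM, 1.24, was the smallest of the 45 genes. The gene lies on chromosome 11 from 43420250 to 43426251 on the minus strand. Ube2c, the ubiquitin-conjugating enzyme of the anaphase promoting complex, had 10.5, 1206, 0, 615, 2313, 143 and 380 CPM, and its peak shared embryo 5 with that of Ccnb1. Cdc20, the activator of that complex, had 5.25, 159, 0, 619, 152, 0 and 135 CPM, highest in embryo 4. Pttg1 was above Cdc20 per kilobase in 6 embryos and below it in embryo 4 (mean log2 difference 4.58 ± 4.59, SD, n = 7; exact permutation p 0.0469, adjusted 0.113).

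Of the G1 cyclins, cyclin E1 was counted in 6 embryos and at higher levels than cyclin E2, and D cyclins were counted in 4 embryos or fewer. Ccne1, encoding cyclin E1, which with CDK2 drives entry into S phase, had 70.8, 239, 532, 252, 377, 0 and 535 CPM. All embryos but embryo 6 were thus above 70 CPM. Ccne2, encoding cyclin E2, had between 0 and 14.3 CPM, the highest value resting on 2 counts in embryo 6, and in the 6 embryos with Ccne1 counts Ccne1 held at least 98.7% of the counts of the pair. Per kilobase, Ccne1 was higher in 6 of 7 embryos (mean log2 difference 5.92 ± 4.22, SD, n = 7; exact permutation p 0.0312, adjusted 0.0938). Ccnd3, encoding cyclin D3, which with CDK4 and CDK6 acts on the retinoblastoma protein, had 78.7, 27.0, 0, 496, 0, 0 and 22.1 CPM. Ccnd1 had 509 counts (15.4 CPM) in embryo 4 and none elsewhere, and 7.62% of all genes tested were counted in embryo 4 alone. Ccnd3 was above Ccnd1 in the 4 embryos with any count of the pair (mean log2 difference 3.76 ± 2.81, SD, n = 7; exact permutation p 0.0156, adjusted 0.0625). The 3 embryos with no count of either gene enter only through the gene lengths, which fix their sign, and the p rests on them. With each pair limited to embryos with at least 20 counts, which leaves the 4 embryos with counts, the mean difference was 5.97 and the adjusted exact p 0.30, and without length scaling that p was also 0.30.

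The MCM ring was represented in full in 2 embryos. Mcm2 to Mcm7, whose products form 1 ring with 1 copy of each, had 2, 5, 4, 6, 2, 1 and 6 subunits counted in embryos 1 to 7 and summed to 585, 171, 204, 953, 98.4, 7.16 and 429 CPM. Per kilobase, embryo 4 had 27.8, 48.0, 35.4, 79.6, 24.2 and 71.7 CPM for Mcm2, Mcm3, Mcm4, Mcm5, Mcm6 and Mcm7, a 3.30-fold range. In embryo 7 the same 6 genes had 46.9, 7.09, 1.11, 68.1, 0.644 and 4.0 CPM per kilobase, a 106-fold range. Embryo 4 was the deepest library, with 33123742 counts against 17122136 in embryo 7, and the part of depth in these ranges was not tested.

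Mcm5 made up most of the ring's counts in embryos 1, 2, 5 and 7, but not in embryos 3, 4 and 6. It had 581, 126, 1.38, 269, 98.0, 0 and 230 CPM in embryos 1 to 7 and made up 99.4% of the ring's counts in embryo 1 and 99.6% in embryo 5, against 28.2% in embryo 4. In embryo 3 it held 0.676%, and Mcm6 was the leading subunit there with 167 CPM. Mcm2 had 93.6 CPM in embryo 4, 158 CPM in embryo 7 and no count elsewhere, embryo 2 with 16452890 counts included, where 3 counts are 0.182 CPM. Mcm7 had 28.9, 212 and 11.9 CPM in embryos 2, 4 and 7 and no count in the others. Mcm3 had 0, 2.07, 33.1, 146, 0, 0 and 21.5 CPM, Mcm4 had 3.50, 1.34, 2.76, 127, 0, 0 and 3.97 CPM, and Mcm6 had 0, 12.6, 167, 105, 0.362, 7.16 and 2.80 CPM. Mcm3 and Mcm4 were thus highest in embryo 4, and Mcm6 was the 1 subunit counted in embryo 6, by 1 count.

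**Figure D5:**
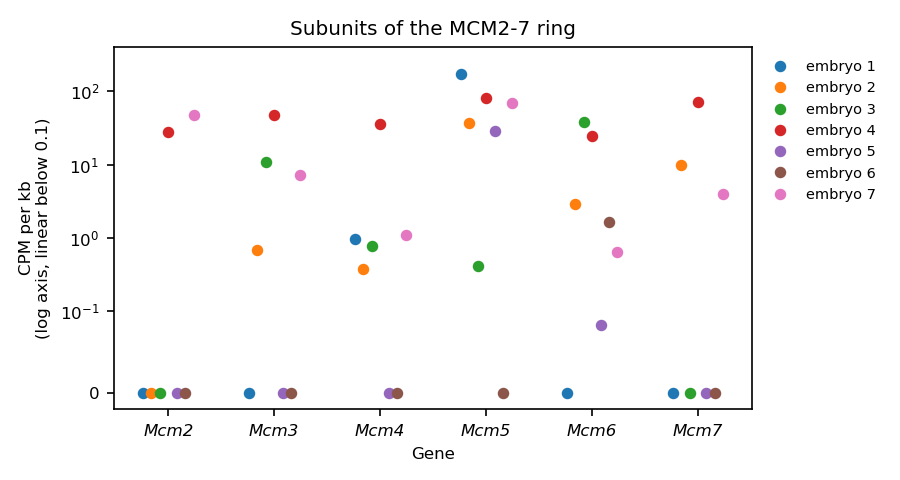
CPM per kilobase (log axis, linear below 0.1) of Mcm2 to Mcm7 in each of the 7 embryos, 1 point per embryo. The red points of embryo 4 lie within a 3.30-fold range, while embryo 1 (blue) has 172 CPM per kilobase of Mcm5 and at most 0.974 of any other subunit.

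Of the factors that load the ring, Cdt1 was counted in 6 embryos and Cdc6 in 5. Cdt1 had 176, 109, 64.8, 268, 5.06, 0 and 72.1 CPM and Cdc6 had 20.1, 57.0, 0, 87.4, 2.53, 0 and 15.7 CPM. Cdc6 was below Cdt1 per kilobase in all 6 embryos with counts (mean log2 difference -3.15 ± 2.01, SD, n = 7; exact permutation p 0.0156, adjusted 0.0625), again without passing after adjustment. Embryo 6, with no count of either gene, enters that test only through the gene lengths, at -1.08, and without embryo 6 the adjusted exact p was 0.0938. Among nucleotide and fork factors, Rrm2, the regulated subunit of ribonucleotide reductase, had 0, 164, 0, 637, 0.362, 7.16 and 29.8 CPM, the highest cell cycle level of embryo 4. Rrm1, its catalytic partner, had 0, 20.7, 0, 163, 13.4, 0 and 0 CPM, and Rrm2 was higher per kilobase in 4 of the 5 embryos with counts (mean log2 difference 2.22 ± 2.73, SD, n = 7; exact permutation p 0.0781, adjusted 0.156). Embryos 1 and 3, with no count of either gene, enter only through the gene lengths, at 0.866 each, and embryo 6 rests on 1 count of Rrm2. The adjusted exact p was 0.5625 without length scaling, 0.422 with at least 20 counts in the pair, and 0.0938 with all exons as the length. Tyms, thymidylate synthase, was at 260 CPM in embryo 4, 73.7 CPM in embryo 2, 44.1 CPM in embryo 5, 36.5 CPM in embryo 7 and 0 in the other 3, and reads may be shared with the copy listed as Tyms-ps. Pcna, the sliding clamp of DNA polymerase, had 0, 81.9, 211, 157, 0, 14.3 and 62.8 CPM. Chek1, the kinase that restrains CDK1 when replication stalls, was the 1 replication gene counted in all embryos, at 0.874, 12.1, 88.2, 59.0, 597, 43.0 and 265 CPM.

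Embryo 4 held the peak of more cell cycle genes than any other embryo, 17 of 45. Of the 17 replication genes 10 were highest in embryo 4, against 7 of the 28 mitotic genes, and 29.6% of all genes tested were highest there. Embryos 1 and 6 each held the peak of 7 mitotic genes and 1 replication gene, beside 10.9% of all genes for embryo 1 and 5.77% for embryo 6. Embryo 2 held the peak of none of the 45 genes, beside 18.6% of all genes.

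No cell cycle gene passed the test for more spread between embryos than genes of like level. In edgeR's quasi-likelihood test of dispersion, 0 of 45 genes passed an adjusted p of 0.05, beside 0% of the 11810 genes, and the lowest adjusted p among them was 0.869. At an unadjusted p under 0.05 there were 0 of the 45 and 68 of all genes, and DESeq2 and limma each also gave 0 of 45. The spread of all genes was wide, with a common dispersion of 9.02, and passing none does not show that the genes spread alike. The median SD of log2 CPM was 4.12 over the 45 genes, against 3.63 over all genes tested, and 32 (71.1%) were above the median of all genes, beside 50%. The median level of the 45 genes was also higher, 89.1 against 20.6 CPM, so these SDs are not compared between genes of like level. The median was 4.14 for mitotic genes and 4.02 for replication genes. Wee2 had the largest SD, 5.32, then Mad2l1 with 5.17, and the smallest after Pttg1 were those of Ccne2, 1.80, and Mki67, 2.34.

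Promoter motifs were counted as a description, with no test between the classes. RefSeq promoters of build GRCm38.p6, from 250 bases before to 50 bases after the start, were at hand for 37 of the 45 genes, 23 mitotic and 14 replication genes. The motif TTTGAA, which is the core of the cell cycle homology region through which DREAM and B-MYB complexes act on mitotic genes, was found on either strand in 60.9% of the mitotic and 7.14% of the replication promoters, beside 18.1% of all 27025 genes. CCAAT, the box bound by NF-Y, was found in 87.0% of mitotic, 57.1% of replication and 37.9% of all promoters. TTCGCGC or TTGGCGC, sites of the E2F factors of S phase genes, were found in 17.4% of mitotic, 35.7% of replication and 3.98% of all promoters, and E2F matches on opposite strands can overlap each other. These are matches of letters and not measured sites.

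Shown are the 250 bases before the start of 4 genes, picked after their motif matches were seen to show each motif beside genes described above. They are Cdk1 (chr10:69352913-69353162, minus strand), a mitotic gene with all 3 motifs, Mki67 (chr7:135716380-135716629, minus strand), counted in every embryo, Mcm6 (chr1:128359706-128359955, minus strand), a ring subunit, and Wee2 (chr6:40442613-40442862, plus strand), the gene at 0 in embryos 4 and 5. The RefSeq start of Wee2 lies inside the GENCODE gene given above. Sequences run 5′ to 3′ on the strand of the gene, and capitals mark the motifs on either strand.
Cdk1: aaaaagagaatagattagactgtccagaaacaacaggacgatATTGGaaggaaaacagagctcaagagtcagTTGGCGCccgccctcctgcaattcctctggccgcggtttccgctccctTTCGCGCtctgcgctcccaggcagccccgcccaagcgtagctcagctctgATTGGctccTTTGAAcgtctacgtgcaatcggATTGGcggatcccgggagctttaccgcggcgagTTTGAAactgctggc
Mki67: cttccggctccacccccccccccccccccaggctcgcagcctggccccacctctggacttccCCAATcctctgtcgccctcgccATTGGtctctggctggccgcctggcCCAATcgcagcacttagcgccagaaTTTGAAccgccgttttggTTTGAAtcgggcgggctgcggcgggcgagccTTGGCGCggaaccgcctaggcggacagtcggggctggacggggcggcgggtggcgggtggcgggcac
Mcm6: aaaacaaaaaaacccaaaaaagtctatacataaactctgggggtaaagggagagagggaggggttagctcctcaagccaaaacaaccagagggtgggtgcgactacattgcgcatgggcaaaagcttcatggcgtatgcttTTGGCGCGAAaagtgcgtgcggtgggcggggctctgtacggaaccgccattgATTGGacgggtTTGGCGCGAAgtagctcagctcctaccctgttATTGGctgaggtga
Wee2: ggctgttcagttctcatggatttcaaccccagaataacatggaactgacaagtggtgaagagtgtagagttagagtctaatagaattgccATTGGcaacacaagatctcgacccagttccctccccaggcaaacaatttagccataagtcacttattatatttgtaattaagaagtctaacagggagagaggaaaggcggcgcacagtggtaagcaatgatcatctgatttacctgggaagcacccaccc
Cdk1 and Mki67 hold TTTGAA at 2 places each, Mcm6 holds paired E2F matches at 2 places, and in Wee2 the 250 bases shown hold CCAAT as the only one of the motifs.

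Other cell cycle genes numbered 129 in 6 lists, of which 118 averaged at least 1 CPM and were tested, and 0 of the 118 passed the edgeR dispersion test. Of the 118, 57 (48.3%) were counted in 5 or more embryos, beside 26.9% of all genes tested, and 8 (6.78%) in all 7, beside 3.69%. The counts per list are small, and no list was tested against all genes. Of 29 origin licensing and firing genes, 1 was counted in all embryos, namely Dbf4, the activator of the origin-firing kinase CDC7. It had 599, 252, 1877, 113, 3.26, 1411 and 696 CPM. Of 16 genes of the anaphase promoting complex and its regulators, 2 were counted in all embryos, and Cdc27, the most abundant, reached 917 CPM in embryo 6 with none in embryo 3. Of 20 cohesin and condensin genes, 2 were, and Wapal, the cohesin release factor now named Wapl, reached 1541 CPM in embryo 3 with none in embryos 5 and 6. None of 22 kinetochore and passenger genes was counted in all embryos, and Cenpa, the histone H3 variant of centromeres, had its peak of 2260 CPM in embryo 5, where Ccnb1 and Ube2c also peaked.

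Regulators of G1 and oocyte genes completed the lists. Of 30 CDKs, inhibitors and E2F or Rb genes, 2 were counted in all embryos. The most abundant, E2f5, of the E2F factors that repress, had 4696, 726, 1196, 0.272, 0, 458 and 1848 CPM, so it was nearly missing from the 2 embryos without Wee2. Of 12 meiotic and oocyte cell cycle genes 1, Plk4, the kinase of centriole duplication, was counted in all embryos, at 9.41 to 971 CPM, and is named after its values were seen. The most abundant gene of that list was Btg4, given above. The list summed to 589 CPM in embryo 4 and 232 CPM in embryo 5, against 1864 to 4879 CPM in the other 5. The oocyte marker sums, given above, were lowest in embryos 4 and 5 too, and the part of stored oocyte RNA in these values was not tested.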

How the data were processed

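Single embryos (7) were lysed, RNA was purified and evened out in amount, and cDNA was primed with oligo-dT (SMART-Seq v4, then Nextera XT), per the labels' protocols. The authors deposited a table of raw read counts per gene symbol and a table of log2 values. The submitters' processing notes name HISAT2 2.0.5, featureCounts 1.5.0-p2 of Subread, limma and build GRCm38; no source used here gives settings, annotation or strand use. The deposited log2 values were recomputed from the counts as quantile-normalized log2 CPM, with a largest difference of 4.97e-14. All columns were used.

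CPM are counts over the library total. Log2 CPM used TMM factors and a prior count of 2 (edgeR 4.0.16, limma 3.58.1, DESeq2 1.42.0, R 4.3.3). The 11810 genes averaging at least 1 CPM entered an intercept-only quasi-likelihood fit, where each dispersion was set against the trend (one-sided F test, Benjamini-Hochberg at 0.05). The test was also run on simulated data, with the outcome not given here, so its power is not stated. Expected detection at the smallest depth is hypergeometric. The 12 pairs were compared with two-sided exact sign-flip permutation tests of log2((CPM + 1) per kilobase), with lengths and positions from GENCODE M21 (45 of 45 matched; longest coding transcript, chosen in place of all annotated exons after a first run, because all exons made some genes too long), and Benjamini-Hochberg adjustment over the pairs. An embryo with neither gene of a pair counted stays in the test, with the log2 ratio of the lengths as its difference. Where several promoters of a gene were listed, the first was used. Of the 45 genes, those of the pairs and the MCM ring and those counted in all embryos were given per embryo. So were the most abundant and the most variable gene of each role, and Pcna and Tyms besides. The members, the pairs and the lists were chosen with earlier results of these data known. Depth, from 139619 to 33123742 counts, sets the precision of each value.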

Additional observations from a re-analysis of the deposited data

Results flagged for a closer look

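In 5 of 46 sets of 7 values, the cell cycle genes and the ratio of the classes, 1 embryo lay apart by Dixon's gap criterion, which chance passes in about 1 of 20 sets of continuous values. The 4 sets of single genes among them include values at the floor of the log2 scale, for which that rate was not tested. Embryo 6, the library of 139619 counts, was lowest for 3 genes with no count, at -2.07 log2 CPM. The next lowest embryo was at 4.84 for Tpx2, 7.02 for Birc5 and 6.11 for Ccne1. Embryo 4, the deepest library, was highest for Ccnd1, at 4.41 log2 CPM, with the other 6 embryos at -2.07. A gene counted in 1 embryo meets the criterion by construction, so this entry says no more than that Ccnd1 was counted in embryo 4 alone. Embryo 6 was highest in the log2 ratio of mitotic to replication CPM, at 6.05 against 2.83 in the next embryo, and rested there on 12 replication counts. With the mean log2 CPM of the members the ratio of embryo 6 was 1.95.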

How the results depend on the processing

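No paired comparison of groups was possible because the 7 embryos form 1 group. The dispersion test gave 0 cell cycle genes and 0 of all genes tested under each of 14 alternatives (other scaling, filters, prior, DESeq2, limma on the deposited table, or leaving out 1 embryo), with all 45 genes tested except 43 at a mean of 10 CPM or more and 44 without replicate 4, and no pair passed under any of its alternatives. Leaving out 1 embryo gave 0 in each case, and a median SD over the 45 genes from 3.78 to 4.29. The number of genes counted in every embryo was 15 without replicate 6, an alternative chosen after seeing the data, as was the length over all annotated exons, under which no pair passed either. Pairs whose difference changed sign, none of them past the test, were Cdc25b over Cdc25a without replicate 7 (-0.20; range over left-out embryos -0.20 to 1.20), Bub1b over Bub1 without replicate 7 (0.070; -1.44 to 0.070), and Aurka over Aurkb without replicate 2 (0.69), without replicate 5 (0.14; range -1.07 to 0.69) and in the deposited log2 table (0.86). The log2 ratio of the classes in embryo 4 was -0.31 by mean log2 CPM, and that of embryo 6 was 1.95. Ccnd3 over Ccnd1 was 2.04 with the length over all exons and 5.18 and 2.80 with pseudocounts of 0.1 and 5. Depth limits all statements on genes without a count in embryos 3 and 6, where 3 counts are 4.13 and 21.5 CPM.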
